A study of Mus musculus with 16 samples.

Results

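The carboxylesterase 1 and 2 genes of the mouse were followed in whole kidney of mice with and without PGC-1α in the renal tubules, on a chow diet and on a high fat diet (HFD). Of 9 listed genes (Ces1c, Ces1d, Ces1e, Ces1f, Ces1g, Ces2a, Ces2c, Ces2e and Ces2g), 8 had a probe set that the platform's annotation gives to that gene alone, out of 22180 genes measured. No probe set was named for Ces2c, and it was not analysed here. The genes were chosen by name with their log2 differences between genotypes on chow already known. Differences and counts of the genes in any comparison that uses the chow arrays are therefore descriptions, with no p-value printed and nothing read from them, and the tests of the genes are those between genotypes on HFD.

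The arrays came from 16 kidney samples, 4 in each of 4 groups. NiPKO mice, an inducible knockout of PGC-1α in the nephron, carried floxed PGC-1α alleles together with Pax8-rtTA and (tetO-cre)LC1, which switch on Cre in the tubule when doxycycline is given, and controls (CTRL) were littermates, for which no source used here lists the alleles. The animals were male, of a background that was mixed for both transgenes. The knockout was induced at 12 weeks of age with 0.2 mg/ml doxycycline and 2% sucrose in drinking water for 2 weeks. The Pax8 promoter acts along the tubule and spares the glomerulus, and the methods' PCR also found recombination in liver. The chow control and chow NiPKO groups ate a diet with 10 kcal% fat, and the HFD control and HFD NiPKO groups one with 60 kcal% fat, for 20 weeks by the design text and 5 months by the paper. The samples are labelled as biological replicates without a link to an animal or a litter, so each p-value below measures the spread between these samples.

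All 16 arrays had like distributions, with medians of 5.35 to 5.40 on the deposited log2 scale and correlations between arrays of 0.986 to 0.992. The probe set of Ppargc1a, the gene for PGC-1α, read higher in the groups labelled NiPKO, at 10.06 ± 0.11 against 9.61 ± 0.05 on chow and 9.99 ± 0.06 against 9.46 ± 0.11 on HFD (SD, n = 4). Exons 3 to 5 are the deleted ones, which exons the probe set reads was not analysed here, and signal from undeleted exons checks nothing. The paper also lists Ppargc1a as raised in NiPKO on chow. In NiPKO kidney it reports recombination of exons 3 to 5 and strongly lower PGC-1α mRNA by RT-PCR, in samples not linked to these arrays. Cox7a1, a cytochrome oxidase subunit named in earlier results, was lower in every NiPKO array than in every control array of its diet, with means of 7.19 against 8.92 on chow and 6.98 against 8.59 on HFD. Kidney markers were strong, with the proximal tubule phosphate carrier Slc34a1 between 13.0 and 13.1 on every array.

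Carboxylesterases are serine hydrolases, mostly held in the endoplasmic reticulum, that split esters and amides of drugs and of the cell's own lipids. Several enzymes of the Ces1 group release fatty acids from triglycerides and cholesteryl esters, while Ces2 enzymes are best known from the breakdown of prodrugs in gut and liver. The mouse has many copies where humans have a single CES1 and CES2, and the copies lie in tandem on chromosome 8. In the gene order of the reference, Ces1c, Ces1d, Ces1e, Ces1f and Ces1g are direct neighbours between Ces1b and Ces1h, and Ces2a, Ces2e and Ces2g lie in a second run that also holds Ces2b, Ces2d-ps, Ces2f and Ces2h. Such copies share sequence, so a probe set can pick up transcripts of a neighbour, which was not tested.

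The upstream windows of the genes whose levels differed most between genotypes are shown to let their sequences be set side by side. They hold the 250 bases before the annotated start in RefSeq's GRCm38.p6, 5′ to 3′ on the strand of the gene, with matches to the motifs searched in capitals. Ces1g lies on the minus strand (chr8:93337210-93337459) and Ces2g on the plus strand (chr8:104961468-104961717).
Ces1g: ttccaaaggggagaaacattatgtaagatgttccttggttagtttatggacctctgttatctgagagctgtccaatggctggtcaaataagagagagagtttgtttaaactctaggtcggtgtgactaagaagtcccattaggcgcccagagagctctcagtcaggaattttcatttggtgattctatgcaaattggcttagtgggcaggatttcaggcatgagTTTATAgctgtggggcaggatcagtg
Ces2g: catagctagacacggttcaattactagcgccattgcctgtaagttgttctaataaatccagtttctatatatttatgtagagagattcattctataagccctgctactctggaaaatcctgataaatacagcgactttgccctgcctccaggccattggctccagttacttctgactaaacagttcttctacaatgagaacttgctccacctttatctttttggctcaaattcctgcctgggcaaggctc
Motifs were searched on both strands in 6 windows, those of all measured genes of the group but Ces1d and Ces1f. TATAAA, the TATA box, was found in Ces1g alone, on the opposite strand (12.4% of 32851 promoter windows hold it). AGGTCA, the half-site of many nuclear receptors, was found in Ces2a alone (14% of windows). Neither AAGGTCA, the extended half-site of estrogen-related receptors, which are partners of PGC-1α and whose site contains AGGTCA, nor TGACNNNGC, the core of the antioxidant response element, was found in any of the 6 (4.08% and 10.2% of all windows).

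Ces1g, a hydrolase known from liver for its part in triglyceride metabolism, had the largest genotype difference of the group. On chow, Ces1g read 5.88, 5.30, 5.93 and 6.15 in control replicates 1 to 4 and 7.70, 8.45, 7.37 and 7.06 in NiPKO replicates 1 to 4. On HFD, it read 5.22, 5.74, 6.35 and 5.85 in control and 8.09, 7.20, 6.70 and 6.08 in NiPKO replicates 1 to 4. Every chow NiPKO array thus lay above every control array of either diet, while on HFD the lowest NiPKO array fell below the highest control array. The group means were 5.82 ± 0.36 and 7.65 ± 0.60 on chow, and 5.79 ± 0.46 and 7.02 ± 0.85 on HFD (SD, n = 4).

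For Ces1g the NiPKO mean on chow was higher by 1.83 on the log2 scale (SE 0.37), a fold of 3.55. On HFD, Ces1g rose by 1.23 in NiPKO (SE 0.37, fold 2.34, unadjusted p = 0.00392), past the study's array thresholds of an unadjusted p under 0.05 and a fold over 1.2, but with an adjusted p of 0.171 over all genes (limma, Benjamini-Hochberg). Without HFD NiPKO replicate 1 the difference in Ces1g on HFD was 0.87 (adjusted p = 0.377), and without HFD NiPKO replicate 4 it was 1.54 (adjusted p = 0.0744). That first replicate also had the highest values of the fat cell genes Plin1, Cidec, Fabp4 and Plin4 of all arrays, at 6.34, 6.75, 10.60 and 6.16. It tied for the highest Adipoq with chow control replicate 2, at 4.62. The other measured adipocyte markers peaked elsewhere. Lep and Pparg were highest on HFD NiPKO replicate 2 (5.91 and 6.63) and Lipe on HFD control replicate 3 (7.51). Retn was highest on chow control replicate 4 (6.81) and Slc2a4 on chow control replicate 1 (8.29). Over the 10 measured adipocyte markers, the mean level ranged from 6.34 to 6.75 in HFD NiPKO, 6.19 to 6.48 in HFD control, 6.18 to 6.25 in chow NiPKO and 6.21 to 6.36 in chow control. Of these markers 1 was higher and 1 lower in NiPKO past the thresholds on chow, and 2 were higher and 1 lower on HFD. For the 14 measured hepatocyte markers the ranges were 6.87 to 6.99 in chow NiPKO against 6.76 to 6.88 in chow control, and 6.88 to 6.98 in HFD NiPKO against 6.86 to 6.93 in HFD control. On chow 1 of the 14 passed upward in NiPKO, Ttr (transthyretin, 0.53, adjusted p = 0.0658, limma), and none downward, with 10 of the 14 higher and 4 lower in all. On HFD 1 passed upward, again Ttr (0.55, adjusted p = 0.0693), and 1 downward, Apoa2 (apolipoprotein A2, −0.28, adjusted p = 0.25), with 7 of the 14 higher and 7 lower in all. The median difference of the 14 was 0.10 on chow and 0.02 on HFD. The part of either cell type in the Ces1g difference was not tested. In bulk tissue, fewer cells of a type and less RNA per cell cannot be told apart.

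**Figure D1:**
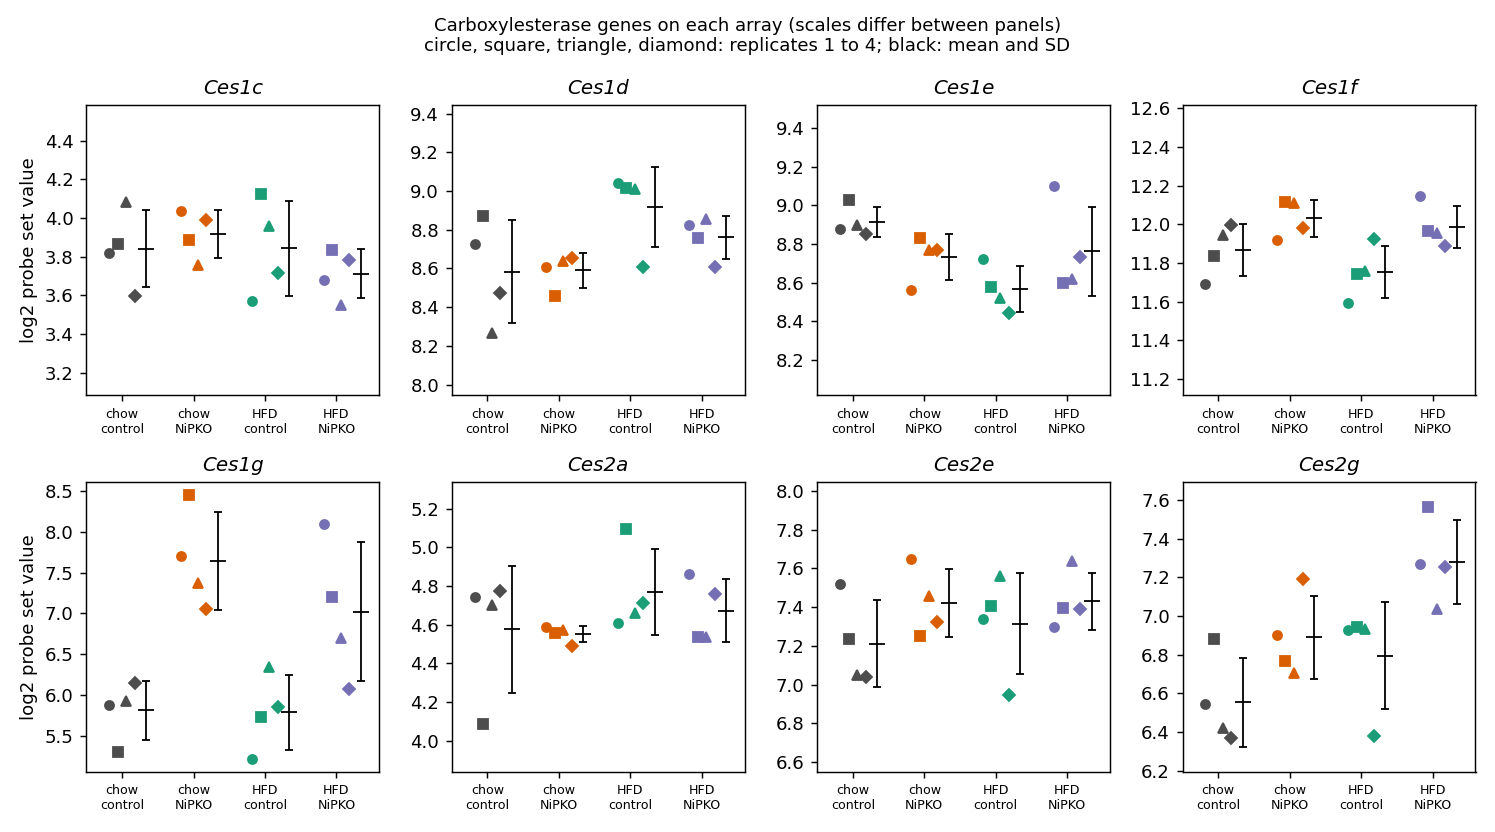
Deposited log2 level (vertical axis) of each of the 8 genes on the 16 arrays, by group, with a point for each array, its shape giving the replicate, and black bars for the group mean and SD. Ces1g was above 7.0 on all 4 chow NiPKO arrays and spread from 6.08 to 8.09 in HFD NiPKO, while the other genes stayed within a range of 1.2.

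Ces1d and Ces1f are among the triglyceride hydrolases of the group, and Ces1d is known to mobilise stored triglyceride for lipoprotein assembly in liver. Ces1d read 8.72, 8.87, 8.27 and 8.47 in chow control replicates 1 to 4, 8.61, 8.46, 8.64 and 8.65 in chow NiPKO, 9.04, 9.02, 9.01 and 8.61 in HFD control, and 8.83, 8.75, 8.86 and 8.61 in HFD NiPKO. HFD control replicates 1, 2 and 3 stood close together and above all chow arrays, and replicate 4 lay within the chow range. The genotype difference in Ces1d was 0.01 on chow (SE 0.12) and −0.16 on HFD (95% interval −0.41 to 0.10, adjusted p = 0.692, limma).

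Ces1f varied least, with values of 11.69, 11.84, 11.95 and 11.99 in chow control, 11.92, 12.11, 12.11 and 11.98 in chow NiPKO, 11.59, 11.75, 11.76 and 11.92 in HFD control, and 12.14, 11.96, 11.95 and 11.89 in HFD NiPKO replicates 1 to 4. On HFD only control replicate 4 reached into the NiPKO range. The NiPKO means of Ces1f were higher by 0.16 on chow (SE 0.08) and by 0.23 on HFD (SE 0.08, unadjusted p = 0.0127, adjusted p = 0.284, limma), and the latter is a fold of 1.18, short of the fold threshold. Without HFD control replicate 4 or HFD NiPKO replicate 4 the difference on HFD was 0.29 or 0.27 and passed it.

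Ces1e is known as egasyn, the protein that holds β-glucuronidase in the endoplasmic reticulum. Its values were 8.88, 9.03, 8.90 and 8.85 in chow control, 8.56, 8.83, 8.77 and 8.77 in chow NiPKO, 8.72, 8.58, 8.52 and 8.44 in HFD control, and 9.10, 8.60, 8.62 and 8.73 in HFD NiPKO replicates 1 to 4. All chow control arrays lay above all chow NiPKO and all HFD control arrays. In NiPKO, Ces1e was lower by 0.18 on chow (SE 0.10) and higher by 0.20 on HFD (SE 0.10, unadjusted p = 0.0631, adjusted p = 0.496, limma), where replicate 1 stood out and left a difference of 0.08 when it was taken away.

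Ces1c, an esterase secreted into mouse plasma, had low readings, from 3.55 to 4.12 over the 16 arrays, with group means of 3.84 ± 0.20 in chow control, 3.92 ± 0.12 in chow NiPKO, 3.84 ± 0.25 in HFD control and 3.71 ± 0.13 in HFD NiPKO (SD, n = 4). The groups overlapped in every comparison. How far such readings lie above background cannot be read from these values.

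Among the Ces2 genes, Ces2g differed most between genotypes. On chow, Ces2g read 6.55, 6.88, 6.42 and 6.37 in control and 6.90, 6.77, 6.70 and 7.19 in NiPKO replicates 1 to 4. On HFD, Ces2g read 6.93, 6.94, 6.93 and 6.38 in control and 7.27, 7.57, 7.04 and 7.25 in NiPKO replicates 1 to 4. All HFD NiPKO arrays lay above all HFD control arrays, whereas 1 chow control array, replicate 2, reached into the chow NiPKO range. Ces2g was higher by 0.34 in NiPKO on chow (SE 0.15, fold 1.26) and rose by 0.48 in NiPKO on HFD (SE 0.15, unadjusted p = 0.00492, adjusted p = 0.193, limma). On chow Ces2g was no longer past the thresholds with the methods' t-test or without any of chow control replicates 1, 3 and 4 and chow NiPKO replicates 1 and 4, with differences of 0.24 to 0.45 as single arrays were left out. Without the low HFD control replicate 4 the HFD difference was 0.35 (adjusted p = 0.338).

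Ces2e, a hydrolase of the same run of genes, read 7.52, 7.23, 7.05 and 7.04 in chow control, 7.65, 7.25, 7.46 and 7.32 in chow NiPKO, 7.34, 7.41, 7.56 and 6.95 in HFD control, and 7.30, 7.39, 7.64 and 7.39 in HFD NiPKO replicates 1 to 4. The groups overlapped on both diets, with NiPKO means higher by 0.21 on chow (SE 0.13) and by 0.12 on HFD (95% interval −0.16 to 0.40, adjusted p = 0.812, limma). Ces2a stayed between 4.49 and 5.09 on all arrays but chow control replicate 2, at 4.09. Its genotype differences were −0.02 on chow (SE 0.14) and −0.10 on HFD (95% interval −0.39 to 0.19, adjusted p = 0.858, limma).

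Counted over the group, 2 of the 8 genes, Ces1g and Ces2g, passed the study's array thresholds upward in NiPKO on chow, where 2.33% of all genes did, and none passed downward (2.09% of all genes). Ces2g was not past them on chow with the methods' t-test. From the same arrays, the paper lists Ces1g as raised in NiPKO on both diets, and Ces2g as raised on HFD but not on chow. At an adjusted p under 0.05 there was 1, Ces1g (1.28% of all genes in either direction). These chow counts describe the comparison known beforehand and carry no test of the genes. On HFD, 2 of 8 passed upward, again Ces1g and Ces2g (1.93% of all genes), and none downward (1.79%). After adjustment 0 of 8 passed on HFD with limma (0.825% of all genes) and 0 with the methods' t-test, while 3 had an unadjusted p under 0.05 (10.8% of all genes in either direction). The groups did not overlap for Ces1g (higher) and Ces1e (lower) on chow, against 7.44% of all genes in either direction, and for Ces2g (higher) on HFD, against 6.88%. The median difference of the 8 genes was 0.12 on chow and 0.16 on HFD, beside 0.01 and 0.00 over all genes. The differences on the 2 diets share no arrays, but their SEs and limma p-values rest on a spread estimated over all arrays of both diets.

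**Figure D2:**
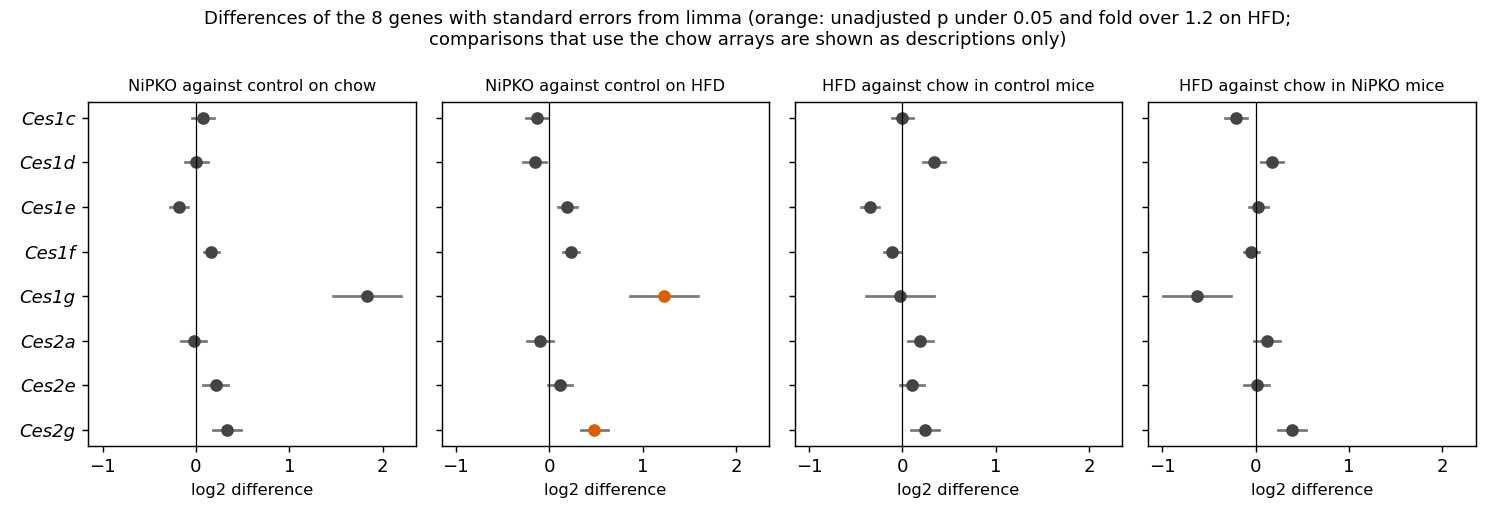
Log2 difference (horizontal axis) of the 8 genes in the 4 comparisons of 2 groups, with a point for the difference and a bar for 1 standard error from limma. Ces1g lies farthest from 0 in both genotype comparisons, at 1.83 on chow and 1.23 on HFD, and Ces1d and Ces1e differed with opposite signs, 0.33 and −0.35, between the diets in control mice. Orange points in the HFD genotype comparison mark an unadjusted p under 0.05 and a fold over 1.2.

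In control mice, Ces1d and Ces1e had the largest differences between the diets, of opposite sign. The mean of Ces1d was higher on HFD by 0.33 (SE 0.12, fold 1.26), and that of Ces1e lower by 0.35 (log2 difference −0.35, SE 0.10, fold 1.27), with all HFD control arrays below all chow control arrays. Described by the same thresholds, 1 of the 8 genes lay past them upward, Ces1d (2.3% of all genes), and 1 downward, Ces1e (2.34%), and Ces1e was the only one whose groups did not overlap (7.12% of all genes). Without chow control replicate 3, Ces1d differed by 0.23 and was no longer past them. Ces1g differed by −0.03 (SE 0.37). Ces2g was higher by 0.24 (SE 0.15), and by 0.38 without HFD control replicate 4 or 0.35 without chow control replicate 2, where it lay past the thresholds.

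Markers of the S3 segment of the proximal tubule moved with HFD in the same mice. Of 9 measured, 2 rose and 3 fell past the thresholds, among them Slc7a12, an amino acid transporter, higher by 2.85 (adjusted p = 0.0253, limma), and the anion transporters Slc22a7 and Slc22a19, which fell by 2.79 and 1.07 (adjusted p = 0.0306 and 0.043). The mean level of the 9 ranged from 9.73 to 10.27 in HFD control and from 10.02 to 10.27 in chow control. Slc22a7 read 8.24 on HFD control replicate 4, against 8.74 to 9.73 in chow control and 5.58 to 6.03 on the other HFD control arrays. Slc22a19 read 9.86 there, near the 9.97 to 10.20 of chow control. Slc7a12 and Slc5a1, which rose with HFD, read 10.21 and 9.09 on that array, above all chow control arrays (at most 9.36 and 8.72). HFD control replicate 4 is also the array with the low Ces1d and Ces2g of its group. In HFD NiPKO, Slc22a7 read 8.18 and 7.40 on replicates 1 and 2, against 5.72 and 5.92 on replicates 3 and 4. Ces1d and Ces2g were not low on those replicates 1 and 2. Ces1d read 8.83 and 8.75 there, against 8.86 and 8.61 on replicates 3 and 4. Ces2g read 7.27 and 7.57, against 7.04 and 7.25. The part of these markers in the esterase values was not tested.

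In NiPKO mice, Ces2g was higher on HFD by 0.39 (SE 0.15, fold 1.31), the only one of the 8 past the thresholds in either direction (2.26% of all genes lay past them upward and 2.21% downward). Without chow NiPKO replicate 3 or HFD NiPKO replicate 2 this difference was 0.33 or 0.30 and no longer past them. Ces1d and Ces1e differed by 0.17 (SE 0.12) and 0.03 (SE 0.10). The mean of Ces1g was lower on HFD, with a difference of −0.63 (SE 0.37) that ranged from −0.98 without HFD NiPKO replicate 1 to −0.31 without HFD NiPKO replicate 4. No gene of the 8 had groups without overlap (8.24% of all genes). In the same comparison 5 of 10 measured adipocyte markers rose past the thresholds, among them Lep by 0.99 and Cidec by 0.66, and of the 9 S3 markers 1 rose and 2 fell. Their part in the values of the esterases was not tested.

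How the genotype difference compared between the diets is given by the interaction, the difference on HFD minus that on chow, which contains the known chow comparison. It was 0.38 for Ces1e (SE 0.14), and leaving out single arrays gave 0.27, without HFD NiPKO replicate 1, to 0.43. Ces1e was the only one of the 8 past the thresholds, where 5.74% of all genes lay in either direction. For Ces2g the interaction was 0.15 (SE 0.21), and for Ces1f 0.07 (SE 0.12). For Ces1g it was −0.60 (SE 0.52), and ranged from −0.96 without HFD NiPKO replicate 1 to −0.29 without HFD NiPKO replicate 4.

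The spread between arrays differed widely among the genes. The residual SD, the spread of a gene around its 4 group means, was 0.596 for Ces1g, higher than for 99.8% of all genes and for 99.3% of the 1000 genes of most similar mean. It was 0.236 for Ces2g, 0.215 for Ces2a, 0.206 for Ces2e, 0.184 for Ces1d and 0.181 for Ces1c, above 84.1% to 94.5% of all genes. Ces1e, at 0.148, and Ces1f, at 0.12, lay above 68.2% and 48.1% of all genes. Beside genes of similar mean, Ces1f and Ces1e still lay above 86.2% and 89.4%. For Ces1g the spread within a group grew from an SD of 0.36 in chow control and 0.46 in HFD control to 0.60 in chow NiPKO and 0.85 in HFD NiPKO, an order that was not tested.

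**Figure D3:**
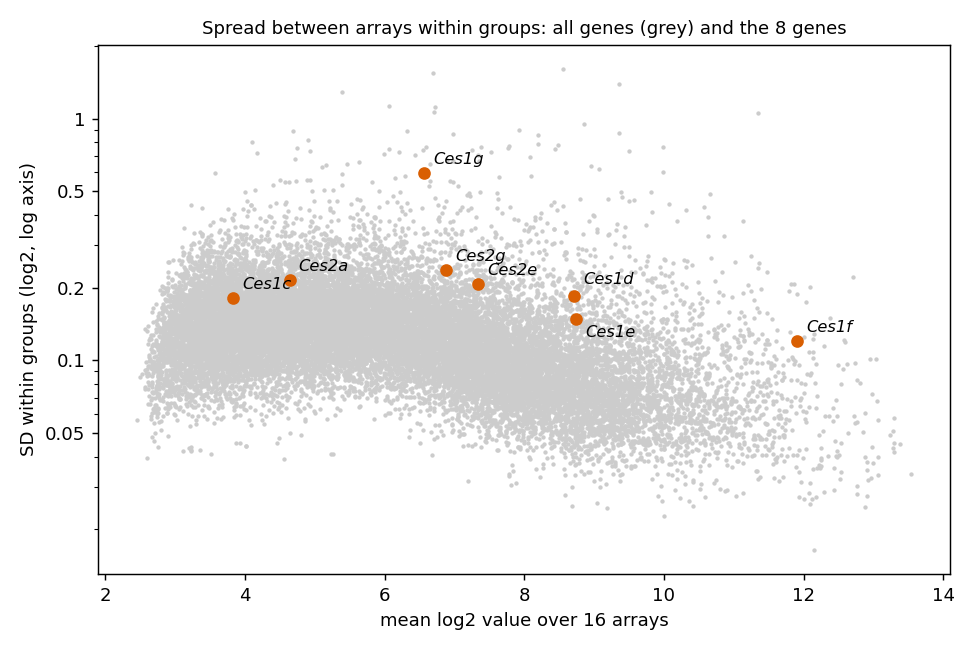
Residual SD between arrays (vertical axis, log2 units on a log axis) against mean log2 level (horizontal axis) for all 22180 genes as small points, with the 8 genes marked. Ces1g, at 0.596, stands above nearly all genes of its level, and Ces1f, at 0.12, is the lowest of the 8.

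Some pairs of the genes deviated from their group means together, and others in opposite directions. Over the 16 arrays the correlation of deviations was 0.67 between Ces1d and Ces2e and 0.64 between Ces1d and Ces2g. It was 0.57 between the neighbours Ces1f and Ces1g. The lowest of all pairs was −0.71, between Ces1f and Ces2e, followed by −0.51 for Ces1f with Ces1d and with Ces2g. These are descriptions over 16 arrays that share 4 group means. HFD control replicate 4 had the lowest value of its group for Ces1d, Ces1e, Ces2e and Ces2g, and the highest for Ces1f. HFD NiPKO replicate 1 had the highest value of its group for Ces1e, Ces1f, Ces1g and Ces2a.

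**Figure D4:**
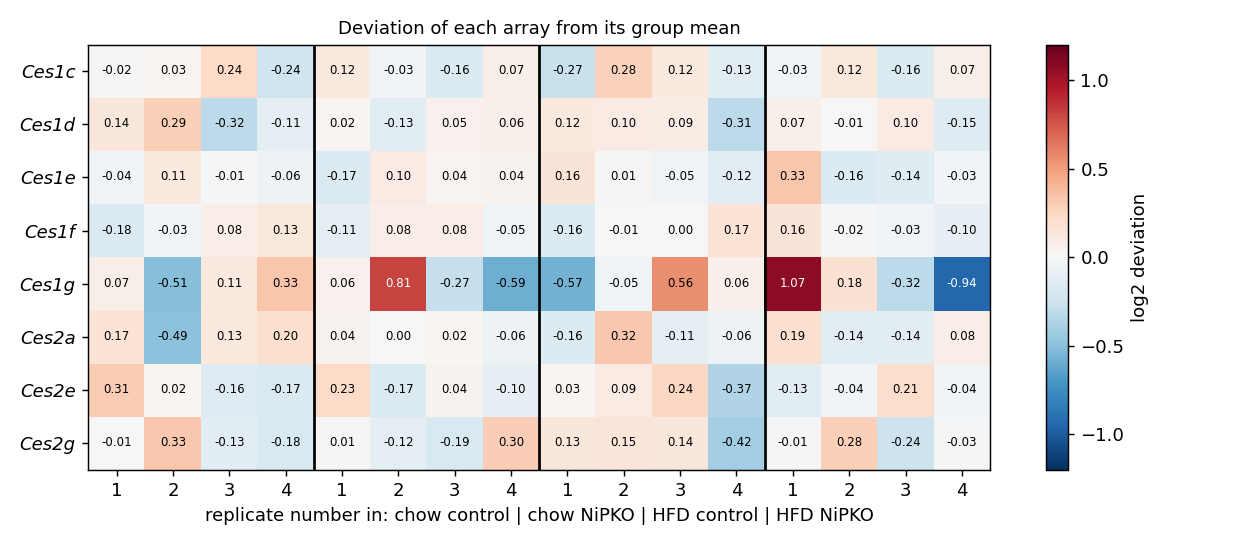
Deviation of each array from its group mean (colour, log2) for the 8 genes (rows) on the 16 arrays (columns). HFD control replicate 4 is low for Ces1d, Ces2e and Ces2g, and HFD NiPKO replicate 1 is high for Ces1e and Ces1g.

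Genes whose deviations were most like those of the 3 genes with the largest spread were looked up over the 16 arrays. For Ces1g these were Api5, Col15a1, Eif4e2, Fam114a2 and Acot9, with correlations of 0.82 to 0.84. For Ces2g they were Creg2, BE949265, Mrps21, Klf14 and Ncf4, with correlations of 0.87 to 0.88. For Ces2a they were Slurp2, Gpr107, Rtkn2, Hsf4 and AA386476, with correlations of 0.82 to 0.84. None of the 15 is a carboxylesterase.

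The other 11 carboxylesterase genes were measured on the same arrays. On chow, 1 of the 11 passed the thresholds upward in NiPKO, Ces2h, the neighbour of Ces2g, with 5.89, 6.14, 5.76 and 5.75 in control and 6.31, 6.21, 6.32 and 6.21 in NiPKO replicates 1 to 4. Its groups did not overlap on chow (difference 0.38, SE 0.12, adjusted p = 0.15, limma). On HFD none of the 11 passed, and Ces2h differed by 0.01 (95% interval −0.24 to 0.26). With HFD in NiPKO, Ces2h was lower by 0.28, and its interaction was −0.37. Both values reuse the chow arrays by which Ces2h was singled out, so they are descriptions without a p-value. Ces2b was the only one of the 11 with a spread close to that of Ces1g, a residual SD of 0.430, above 99.5% of all genes, and ranged from 5.06 to 6.80. Of the genes that flank Ces1g, Ces1h differed between genotypes by −0.04 on chow and −0.18 on HFD (SE 0.09), and Ces1f by 0.16 and 0.23 (SE 0.08).

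**Figure D5:**
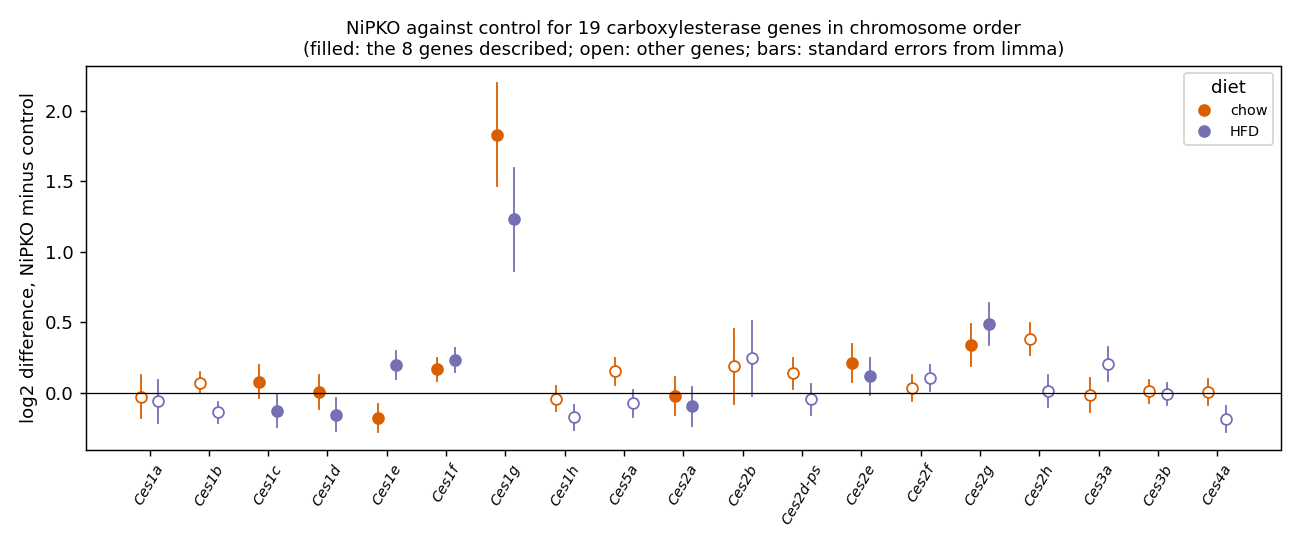
Log2 difference between NiPKO and control (vertical axis) for 19 carboxylesterase genes in chromosome order, on chow and on HFD, with bars for 1 standard error. Ces1g stands apart from its neighbours on both diets, at 1.83 and 1.23, and Ces2h was higher by 0.38 on chow and 0.01 on HFD.

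Other genes of neutral lipid breakdown showed few genotype differences past the thresholds. The list held neutral lipid and cholesteryl ester hydrolases together with the regulators Abhd5 and G0s2. Of 16 measured, none passed the thresholds in NiPKO on chow, and 1 rose on HFD, Lipg, an endothelial lipase (0.44, adjusted p = 0.2, limma). Short of the fold threshold, Pnpla2 differed by −0.23 on chow and −0.17 on HFD (adjusted p = 0.214 and 0.442, limma). Abhd6 differed by −0.22 and −0.20 (adjusted p = 0.252 and 0.368). In all, 9 of the 16 were higher and 7 lower on chow, and 7 higher and 9 lower on HFD. With HFD in control mice Lpl (lipoprotein lipase) fell by 0.99 (adjusted p = 0.0385), while Mgll (monoglyceride lipase) rose by 0.46 (adjusted p = 0.112) and Ddhd2 by 0.31 (adjusted p = 0.076), so 2 rose and 1 fell.

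Of 14 measured esterases of other families, 2 fell in NiPKO on both diets and none rose. Pon3 (paraoxonase 3, a lactonase) fell by 0.90 on chow and 0.66 on HFD (adjusted p = 0.000469 and 0.0093, limma), and Faah, which splits fatty acid amides, fell by 0.35 and 0.38 (adjusted p = 0.0237 and 0.0217). Nuclear receptors of drug and lipid metabolism are known to drive carboxylesterase genes in liver. None of 11 measured receptors, counting Ahr, which is not a nuclear receptor, passed the thresholds in NiPKO on chow. On HFD Nr1i2, the pregnane X receptor, passed them and fell by 0.53 (adjusted p = 0.283, limma). Among 12 measured targets of that receptor and of its relative CAR, 1 fell in NiPKO on chow (Cyp2c29) and 1 rose on HFD (Alas1).

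Of 18 measured targets of NRF2, the factor of the antioxidant response, Srxn1 (sulfiredoxin) fell in NiPKO by 0.33 on chow and 0.38 on HFD (adjusted p = 0.00718 and 0.00627, limma). Upward, 1 passed on chow, Nqo1 (0.28, adjusted p = 0.0564), and 2 on HFD, Hmox1 and Gclc (0.39 and 0.44, adjusted p = 0.292 and 0.445). The median differences of these lists in NiPKO lay between −0.03 and 0.06 on chow and between −0.07 and 0.03 on HFD, beside 0.01 and 0.00 over all genes.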

How the data were processed

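Total kidney RNA of 16 samples was measured on Affymetrix Mouse Gene 2.0 ST arrays. The authors deposited log2 values for 41345 probe sets. Partek is named in the submitters' processing notes, with no account of background correction or normalization. That the scale is log2 was read from the range, 2.07 to 13.8. Of the probe sets, 23521 carry 1 gene symbol, and the brightest of a gene stood for it, which left 22180 genes without a filter on dim ones. The 8 genes have 1 probe set each.

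Groups were taken from the labels. A mean for each of 4 groups was fitted to all arrays with limma 3.58.1 (lmFit, eBayes; R 4.3.3), with Benjamini-Hochberg adjustment over all genes. Genes were counted at the study's array thresholds (unadjusted p under 0.05, fold over 1.2) and at an adjusted p under 0.05. The fit was tested on simulated data. Array number and the spread between arrays limit the precision.

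The genes, the lists, the rule for named genes and the alternatives were chosen with earlier results of these data known. The differences between genotypes on chow being among them, the 8 genes were tested between genotypes on HFD only, and the other comparisons describe them. The rule named all 9 genes, the other carboxylesterases, the 4 genes of smallest p in a list, and the 5 genes most like each of the 3 with the largest spread. Upstream windows of 250 bases came from RefSeq (GRCm38.p6). The alternatives were the 2 groups alone, quantile normalization, centring on the median, the methods' t-test, brighter genes, array weights, a trended robust prior, mean probe sets, a fold over 1.5, a block for the replicate number, and each array left out in turn.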

Additional observations from a re-analysis of the deposited data

Results flagged for a closer look

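Single arrays stood far from the rest of their group in 3 of 32 groups of 4 arrays checked (8 genes in 4 groups), where chance flags about 1 in 20 groups. Ces1d in HFD control read 8.61 on replicate 4, and its gap to the nearest array was 0.928 of the whole range of the group. Ces2g in HFD control read 6.38 on the same array, with a ratio of 0.978. Ces2a in chow control read 4.09 on replicate 2, with a ratio of 0.899. The genotype difference of Ces1e was 0.38 higher on HFD than on chow, a value that contains the chow comparison known beforehand and so carries no test here.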

How the results depend on the processing

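At a fold over 1.5, 1 of the 8 genes (Ces1g) passed in NiPKO on chow and 1 on HFD, and 0 passed in each diet comparison and in the interaction. With the methods' t-test, 1 passed on chow (Ces1g), 0 after adjustment, and 1 with HFD in control mice (Ces1e). The other counts stayed within 1.5 times. Values near 0 changed sign. These were Ces1d in NiPKO on chow (−0.0088 with centring, −0.0187 with array weights), Ces1c with HFD in control mice (−0.0184 with quantile normalization, −0.0302 with centring), Ces1g there (0.0078 with array weights) and Ces2e with HFD in NiPKO (−0.0464 with quantile normalization). The cause was not tested.

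Leaving out each array gave 1 to 2 genes in NiPKO on chow, 0 to 1 after adjustment, 2 to 3 on HFD, 1 to 3 with HFD in control mice, 0 to 2 with HFD in NiPKO and 1 to 2 for the interaction. On chow, where the counts are descriptions only, Ces1g was no longer counted after adjustment without chow control replicate 2 or chow NiPKO replicate 2. Signs turned in NiPKO on chow for Ces1c (−0.0042 to 0.157), Ces1d (−0.10 to 0.10) and Ces2a (−0.188 to 0.0409), on HFD for Ces2a (−0.16 to 0.0118) and Ces2e (−0.0056 to 0.198), with HFD in control mice for Ces1c (−0.0925 to 0.0908) and Ces1g (−0.21 to 0.16), with HFD in NiPKO for Ces1e (−0.0811 to 0.0853) and Ces2e (−0.059 to 0.0867), and in the interaction for Ces2a (−0.137 to 0.0918).

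Same-numbered arrays correlated between −0.098 and 0.166 in their deviations, so the numbers were not taken as pairs. With the replicate number as a block, 2, 2, 2, 1 and 1 genes passed in the 5 comparisons, and no call changed. The methods' t-test and the 2-group fit were not run for the interaction, and the brighter genes leave out Ces1c and Ces2a.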
